A study of Mus musculus with 4 samples.

Results

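The genes described here code for enzymes that oxidize or reduce reactive aldehydes and ketones in the lung. They comprise 10 of the 32285 genes in the count tables and were taken by name, as the rows of the listed genes present in all 4 tables. Of these, Aldh1a1, Aldh1a7, Aldh2, Aldh3a1 and Aldh3a2 code for aldehyde dehydrogenases, which convert aldehydes to carboxylic acids. Akr1a1, Akr1b3 and Akr1c18 code for aldo-keto reductases, Cbr2 for a carbonyl reductase, and Adh1 for an alcohol dehydrogenase. Aldehydes such as formaldehyde, acetaldehyde and acrolein form when the propylene glycol and glycerol of vape juice are heated, and lipid peroxidation in tissue yields others. Aldehyde dehydrogenases use NAD or NADP to oxidize them, whereas aldo-keto reductases and carbonyl reductases use NADPH to turn them into alcohols. Club cells, the secretory cells of the airway lining, and alveolar type 2 (AT2) cells, which make surfactant, are known sites of xenobiotic metabolism in the mouse lung.

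Lung cryosections of C57BL/6J mice were profiled on Visium slides, whose barcoded spots each capture the polyadenylated RNA of several neighbouring cells and mark each captured molecule by a barcode of its own, the unique molecular identifier (UMI). The 2 vaped (V) mice, 1 male and 1 female, had been exposed from 6 to 8 weeks of age to e-vapor of Peach Ice 70VG/30PG (ORGNX) vape juice from JUUL pens in whole body chambers, for 9 weeks, with 5 sessions of 4 h in each week. The 2 non-vaped (NV) mice, again 1 male and 1 female, served as controls, and the study elsewhere describes its control animals as air-exposed. Each mouse gave 1 section of a region labelled as the upper pulmonary branches, so the section stands for the mouse, and a difference between mice and a difference in the place of the cut cannot be told apart. The question asked of these genes was whether their level differed between V and NV sections, and which tissue of the section carried them.

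Among the 10 genes, the pair Aldh1a1 and Aldh1a7 lies within 1 stretch of chromosome 19 and shares sequence upstream of the start of transcription. This pair is shown because the genes were distributed differently over the sections. In RefSeq promoter windows of GRCm38.p6, the 120 bases before a start of Aldh1a1 (chr19:20601848-20601967, plus strand) and before the start of Aldh1a7 (chr19:20727557-20727676, minus strand) were identical at 105 positions, or 87.5%. Of the 2 starts of Aldh1a1, the one with more identical bases was taken, and the other is not shown. Capitals mark the 15 bases that differ between the 2 genes, both read 5′ to 3′.
Aldh1a1: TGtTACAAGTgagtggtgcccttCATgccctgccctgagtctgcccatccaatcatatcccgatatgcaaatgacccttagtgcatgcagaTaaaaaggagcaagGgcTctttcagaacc
Aldh1a7: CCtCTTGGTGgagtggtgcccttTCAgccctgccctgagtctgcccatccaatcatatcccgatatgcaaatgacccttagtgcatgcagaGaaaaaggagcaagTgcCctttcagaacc
Counted from 1 at the 5′ end of the stretch shown, with the base of Aldh1a1 first, the changes nearest the start were T92G, G106T and T109C. Of the 10 genes, 7 had a promoter window in the RefSeq table, 8 windows in all because Aldh1a1 had 2. Aldh2, Aldh3a1 and Akr1b3 had none, so their promoters were not searched. The core letters TGACNNNGC of the antioxidant response element, searched on both strands over 250 bases before to 50 bases after each start, were in 0 of the 8 windows and in 12.4% of all 32851 windows. The letters GCGTG of the xenobiotic response element core were in 1 of the 8 windows, that of Aldh3a2, and in 32.4% of all windows.

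The sections held 473 to 2053 spots under tissue and 6957392 to 34308556 UMIs, with a median of 6259 to 11355 UMIs per spot. Levels are given as CPM, the UMIs of a gene scaled to a total of 1000000 in the same spots, and an interval beside a level is an exact 95% Poisson interval that covers counting error only. The V male section stood apart. Its summed club cell markers (Scgb1a1, Scgb3a2, Cyp2f2 and Cckar) were at 288 CPM, against 12900 CPM (NV male), 2296 CPM (NV female) and 13707 CPM (V female). Its heart muscle markers were at 10.4 CPM, against 5018 to 9449 CPM in the other sections, and its adipocyte markers at 59.2 CPM, against 290 to 1648 CPM. Markers of alveolar type 1 (AT1) cells, which form the gas exchange surface, were highest there, at 2238 CPM against 926 to 1213 CPM. The lung label was met in every section, since 6 of 6 AT2 markers and 5 of 5 AT1 markers were detected, whereas hepatocyte markers stayed at or below 7.33 CPM. The sections shared 277 to 1167 spot barcodes in pairs, as the capture areas of Visium slides carry the same barcodes.

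Aldh1a1, Aldh2, Aldh3a1, Akr1a1 and Cbr2 were higher in both V sections than in both NV sections, Adh1 was lower in both, and the other 4 genes overlapped between the groups. For Aldh2, Akr1a1 and Adh1 the Poisson interval of the V female overlapped that of an NV section, so their order lies within counting error. Aldh1a1 codes for a cytosolic enzyme that makes retinoic acid from retinal and also clears lipid aldehydes. Its level was 571 CPM (NV male), 453 CPM (NV female), 1248 CPM (V male) and 661 CPM (V female). Both V sections lay above both NV sections, with the V male highest. The V sections averaged 955 ± 415 CPM and the NV sections 512 ± 83.1 CPM (SD, n = 2 each).

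Aldh2, the mitochondrial enzyme that clears acetaldehyde, was at 792 CPM (NV male), 849 CPM (NV female), 1388 CPM (V male) and 861 CPM (V female). The V female exceeded the NV female by a ratio of 1.01, and the V male stood alone above the other 3 sections. Cbr2, a carbonyl reductase of lung mitochondria, was at 2615 CPM (NV male), 1567 CPM (NV female), 3411 CPM (V male) and 2936 CPM (V female). Here the NV female was the section that lay apart, at the low end. Akr1a1, the aldehyde reductase that also serves vitamin C synthesis in mice, was at 378 and 381 CPM (NV male and female) and 466 and 395 CPM (V male and female). The V female was 1.04 times the NV female.

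Aldh3a1, which oxidizes aromatic and medium-chain aldehydes and is induced through the aryl hydrocarbon receptor, was counted at low levels. The NV male had 22 UMIs (2.34 CPM, 1.47 to 3.55), the NV female 5 (0.719 CPM, 0.233 to 1.68), the V male 43 (3.62 CPM, 2.62 to 4.88) and the V female 460 (13.4 CPM, 12.2 to 14.7). The intervals of the 2 males overlapped, whereas that of the V female lay above all others. Akr1c18, the reductase that inactivates progesterone, had 295 UMIs in the V female (8.60 CPM) and 2 UMIs in the NV male. It had 0 UMIs in the NV female, which allows up to 0.431 CPM, and 0 in the V male, which allows up to 0.253 CPM, each limit being set at 3 UMIs of the section. A single section thus held nearly all of its UMIs, and no fold was drawn from it.

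Adh1, which oxidizes ethanol and retinol and so forms aldehydes, was the only one of the 10 genes lower in both V sections over the whole section. It was at 189 CPM (NV male), 200.2 CPM (NV female), 111 CPM (V male) and 182 CPM (V female). The V female lay 0.911 times the NV female and the V male 0.587 times the NV male. Aldh1a7, a rodent paralogue of Aldh1a1, was at 44.2 and 48.4 CPM in the NV sections, below both in the V male (23.4 CPM) and above both in the V female (70.2 CPM). Aldh3a2, the fatty aldehyde dehydrogenase, ranged from 57.0 CPM (V female) to 75.9 CPM (V male). Akr1b3, the mouse aldose reductase, ranged from 123 CPM (V male) to 136 CPM (V female), the narrowest of the 10 genes as a ratio of highest to lowest.

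**Figure D1:**
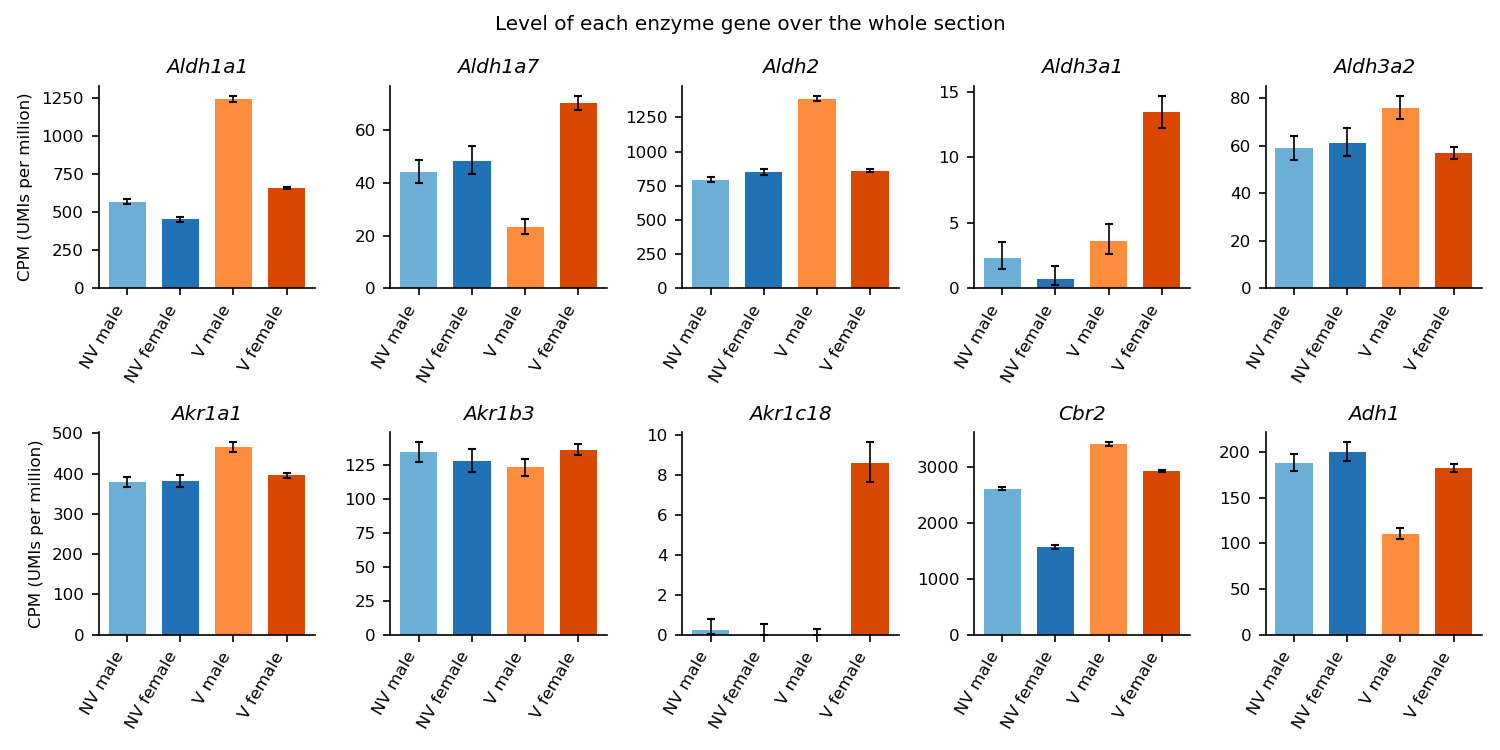
Level of each of the 10 genes in CPM (UMIs scaled to a total of 1000000 per section, linear axes from 0) in the 4 sections, with exact 95% Poisson intervals as error bars. Aldh1a1 and Aldh2 are highest in the V male, at 1248 and 1388 CPM, whereas Aldh3a1 and Akr1c18 are highest in the V female, at 13.4 and 8.60 CPM.

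Over all 14570 genes tested, 12.6% lay higher in both V sections than in both NV sections and 14.4% lay lower in both, so 5 and 1 of the 10 genes are to be read against those shares. The UMI sums of the sections were compared with edgeR's quasi-likelihood test, a gene counting as called where its Benjamini-Hochberg adjusted p fell under 0.05 and its log2 fold change exceeded 0.25 in size. Of the 14570 genes, 0 were called, or 0%, 248 had an unadjusted p under 0.05, and DESeq2's Wald test called 8. Of the 10 genes, 9 passed the filter on low counts, Akr1c18 being left out, and 0 were called by either tool. The log2 fold change of V over NV was 0.84 (SE 0.35) for Aldh1a1, 0.57 (SE 0.36) for Cbr2, 0.41 (SE 0.29) for Aldh2, 2.50 (SE 0.98) for Aldh3a1 and -0.40 (SE 0.37) for Adh1. The adjusted p of each was 0.9997 in edgeR. For the other 4 genes tested the log2 fold change lay between -0.03 and 0.15. The median over the 9 genes was 0.15, beside 0.03 over all genes tested. Fewer cells of a type in a section and less RNA per cell cannot be told apart in such sums. At 2 against 2 mice, the smallest two-sided p of an exact permutation test is 0.333.

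Single sections moved these values. Each fit without a mouse leaves a single mouse in its group, so only the size of the difference is given. Without the V male, the log2 fold change of Aldh1a1 was 0.44 and that of Adh1 was -0.02, and without the V female they were 1.15 and -0.95. For Aldh2 the values were 0.14 without the V male and 0.62 without the V female. Aldh3a1 went the other way, from 3.14 without the V male to 1.05 without the V female, and was 3.58 without the NV male and 1.91 without the NV female. Cbr2 turned on the NV mice, with 0.98 without the NV male and 0.26 without the NV female. Aldh1a7 changed direction, from 0.67 without the V male to -1.13 without the V female.

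Because the sections held unequal amounts of airway, fat and heart muscle, the comparison was repeated over spots in none of a section's top 25% for club, adipocyte and heart muscle markers. The same 5 genes were higher in both V sections and Adh1 was lower in both, where 14.2% of 13367 genes tested lay higher and 18.9% lower. For Aldh1a1, Akr1a1 and Adh1 the Poisson interval of the V female overlapped that of an NV section in these spots too. The sections stayed unlike in these spots. Club markers were at 7440, 1038, 171 and 6708 CPM in the order NV male, NV female, V male, V female, heart muscle markers at 3487, 2526, 0 and 1859 CPM, and adipocyte markers at 141, 569, 14.4 and 526 CPM. In these spots Aldh1a1 was at 638 CPM (NV male), 649 CPM (NV female), 1256 CPM (V male) and 652 CPM (V female). The V female and the NV sections were thus nearly level, and the V male alone stood above them. Aldh2 was at 883 and 841 CPM (NV male and female) and 1387 and 967 CPM (V male and female). Adh1 was at 219 and 265 CPM (NV male and female) and 114 and 215 CPM (V male and female).

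Of Aldh3a1 these spots held 5 UMIs for the NV male (1.12 CPM, 0.365 to 2.62), 2 for the NV female (0.680 CPM, 0.0824 to 2.46), 27 for the V male (4.51 CPM, 2.97 to 6.57) and 76 for the V female (6.15 CPM, 4.85 to 7.70). Both V intervals lay above both NV intervals, with counting error alone considered. The log2 fold change was 2.52 (SE 0.55), with a p of 0.00463 before and 0.994 after adjustment over all genes in edgeR, so it was not called. It lay between 2.23 and 2.99 when each mouse was left out in turn. Aldh1a1 had a log2 fold change of 0.58 (SE 0.32), which was 0.06 without the V male and 0.97 without the V female, where the V male alone stands for V. Aldh2 had 0.46 (SE 0.22) and Cbr2 0.38 (SE 0.20), each at an adjusted p of 0.994 in edgeR. Adh1 had -0.53 (SE 0.34), which was -0.13 without the V male and -1.09 without the V female. Of the 13367 genes, 0 were called by edgeR, or 0%, 477 had an unadjusted p under 0.05, and DESeq2's Wald test called 9, with 0 of the 10 genes among them. The AT1 markers in these spots were at 1472 and 1419 CPM (NV male and female) and 2288 and 1751 CPM (V male and female). Macrophage markers (310 and 541 against 620 and 700 CPM) and endothelium markers (2524 and 2621 against 3147 and 2724 CPM) were likewise higher in both V sections. AT2 markers (4813 and 4342 against 3711 and 3762 CPM), fibroblast markers (1153 and 1470 against 364 and 1070 CPM) and those of B and plasma cells (233 and 265 against 134 and 147 CPM) were lower in both, as Adh1 was. The part of these markers, and of the club markers, in the differences was not tested.

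**Figure D2:**
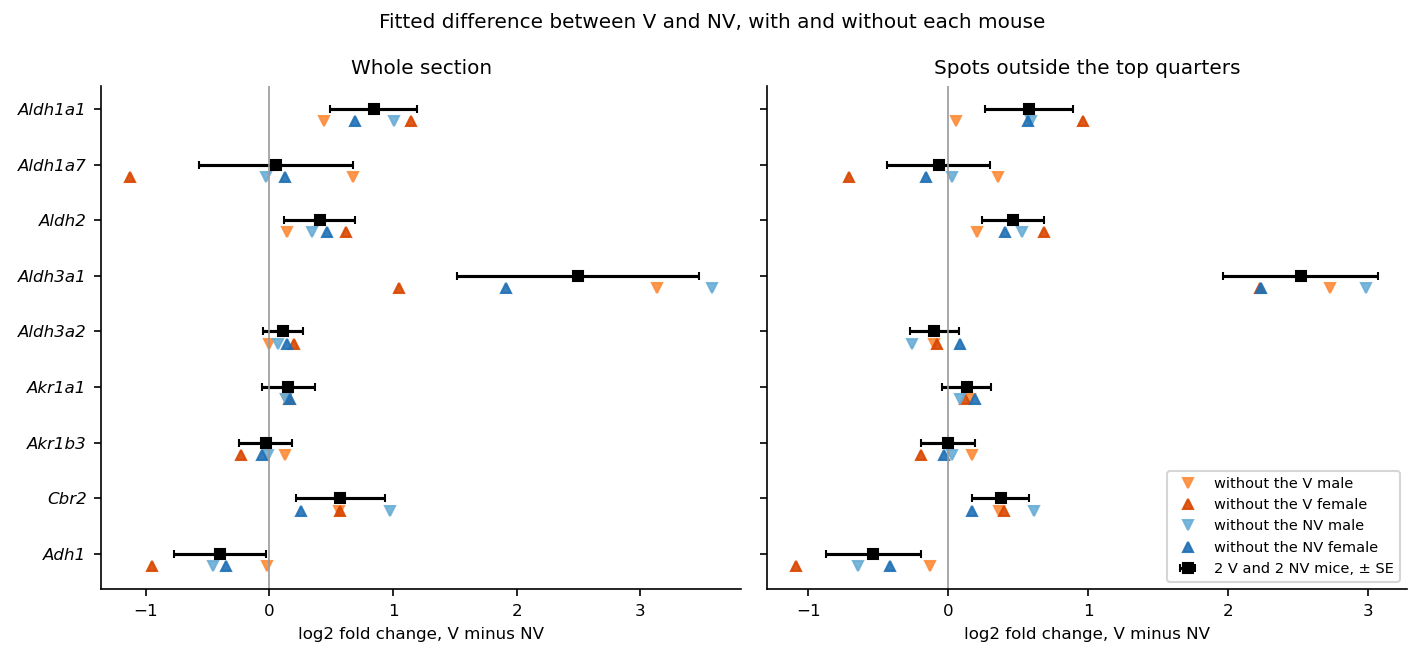
Log2 fold change of V over NV for the 9 genes tested (horizontal axis), over the whole section and over spots outside the top 25% of club, adipocyte and heart muscle markers. Squares with bars are the edgeR estimate ± SE from all 4 mice and triangles the estimate without 1 mouse. For Aldh1a1, Aldh1a7 and Adh1, among others, the 2 estimates that leave out a V mouse lie on either side of the square, which a group of 2 mice makes likely. Aldh3a1 stays above 0 in each.

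To place the genes in the tissue, the 25% of spots with the highest club marker share in each section were compared with its other spots, with the section as a block. The marker share itself was 3.90 to 10.9 times higher in the club-high spots of a section. In the V male these spots held club markers at only 686 CPM, against 10124 to 36633 CPM in the club-high spots of the other sections. The club relation in the V male is thus one among spots that hold little airway. Outside the V male, the other spots also take in heart muscle, where Aldh1a1 and Cbr2 were low in the NV male. There they were at 243 and 1163 CPM in spots with most heart muscle markers, against 676 and 3083 CPM in other spots. Akr1b3 was about level, at 132 and 135 CPM. The correlation of Cbr2 with heart muscle markers was -0.577 (NV male), -0.400 (NV female), 0.029 (V male) and -0.233 (V female). The part of heart muscle in the ratios below was not tested.

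Aldh3a1 was higher in club-high spots. It was at 6.89 CPM in club-high and 1.09 CPM in other spots of the NV male, 0.967 and 0.675 CPM (NV female), 3.46 and 3.66 CPM (V male) and 36.4 and 5.65 CPM (V female). The rise was seen in the NV male and the V female, with 1 UMI in the club-high spots of the NV female and no rise in the V male. The log2 difference was 1.96 (SE 0.38) and was called at an adjusted p of 0.0353 by edgeR, which called 165 of 13688 genes, or 1.21%. The call was lost in DESeq2's Wald test (adjusted p of 0.0644) and when any mouse but the V male was left out, with a log2 difference of 0.96 without the V female. Aldh3a1 was the only one of the 9 genes tested that was called, while 5 of them had an unadjusted p under 0.05.

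Aldh1a1 was at 818 CPM in club-high and 502 CPM in other spots of the NV male, 626 and 423 CPM (NV female), 1194 and 1264 CPM (V male) and 1196 and 480 CPM (V female). The 3 sections with airway had ratios of 1.48 to 2.49 and the V male a ratio of 0.944. The log2 difference of 0.55 (SE 0.16) had an adjusted p of 0.156 in edgeR, and without the V male it was 0.77 with an adjusted p of 0.0205. Cbr2 behaved alike over sections, with ratios of 1.61 (NV male), 1.50 (NV female), 1.03 (V male) and 1.85 (V female). Its log2 difference of 0.48 (SE 0.12) had an adjusted p of 0.104 in edgeR, was called by DESeq2's Wald test at 0.0258, and was 0.61 with an adjusted p of 0.0121 in edgeR without the V male. That fit called more genes over all genes tested than any other that leaves out a mouse. Aldh1a7 had ratios of 1.12 to 1.73 in all 4 sections and an adjusted p of 0.0978 in edgeR. For Aldh2, Aldh3a2, Akr1a1 and Akr1b3 the log2 difference lay between -0.04 and 0.03, and for Adh1 it was -0.23 (adjusted p of 0.290 in edgeR). The median over the 9 genes was 0.03, beside -0.01 over all genes tested.

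Spots within a range of club content were also set side by side across sections, without a test. The ranges are wide, so sections can still differ in club content within a range. Among spots with club markers at 1000 to 10000 CPM, Aldh1a1 was at 507 CPM in 645 spots of the NV male, 573 CPM in 276 spots of the NV female, 1150 CPM in 46 spots of the V male and 488 CPM in 1714 spots of the V female. The V male remained the high section, and the V female lay below both NV sections. In spots above that range, Aldh1a1 was at 823 CPM in 195 spots of the NV male and 1386 CPM in 336 spots of the V female, and Cbr2 was at 3780 and 4922 CPM. The NV female had 2 spots above it and the V male 1, too few to compare. Aldh3a1 was at 7.42 CPM (14 UMIs) in those of the NV male and 45.1 CPM (298 UMIs) in those of the V female.

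The club relation was compared between V and NV sections through an interaction term in the same fit. Of 13688 genes, 219 were called by edgeR, or 1.60%, and 0 of the 9 enzymes tested were. The log2 difference of the club relation, V minus NV, was 0.04 (SE 0.27) for Aldh1a1, -0.11 (SE 0.22) for Cbr2 and -0.12 (SE 0.78) for Aldh3a1. These standard errors leave room for differences of well over 1.5-fold for Aldh3a1. The V sections entered the term with unlike club ratios, at 0.944 (V male) and 2.49 (V female) for Aldh1a1 and 0.944 and 6.44 for Aldh3a1. In the NV male and female these were 1.63 and 1.48, and 6.34 and 1.43, the last on 5 UMIs. Club-high spots of the V male held club markers at only 686 CPM. A term near 0 thus does not show that the club relation was alike in V and NV.

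AT2-high spots were defined in the same way from Lamp3, Slc34a2, Abca3, Sftpd, Etv5 and Cxcl15. Cbr2 was higher there in every section, at 3257 against 2362 CPM (NV male), 2819 against 1242 CPM (NV female), 4150 against 3150 CPM (V male) and 3677 against 2763 CPM (V female). The ratio was 1.32 to 1.38 in 3 sections and 2.27 in the NV female. The log2 difference of 0.49 (SE 0.13) was called at an adjusted p of 0.0402 by edgeR, in a comparison where 1266 of 13465 genes, or 9.40%, were called. The call was lost without the V female, the NV male or the NV female, with log2 differences of 0.33 to 0.59 in those fits. Cbr2 was the only one of the 9 genes called. Aldh3a1 had a log2 difference of -1.12 (SE 0.36, adjusted p of 0.0845 in edgeR), which was -1.61, called at an adjusted p of 2.27e-05, without the V male and -0.15 without the V female. The other 7 genes lay between -0.20 and 0.20, and without the V male Aldh1a7 was called at -0.39 and Aldh3a2 at 0.28 (adjusted p of 0.0117 and 0.0387 in edgeR). Of the fits that leave out a mouse, the one without the V male called the most genes over all genes tested. The median over the 9 genes was 0.02, beside 0.002 over all genes tested.

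AT1-high spots, defined from Rtkn2, Clic5, Pdpn, Akap5 and Gprc5a, held less Aldh1a7 and more Aldh3a2. Aldh1a7 was at 37.9 CPM in AT1-high and 46.2 CPM in other spots of the NV male, 33.8 and 51.7 CPM (NV female), 22.5 and 23.7 CPM (V male) and 46.7 and 74.1 CPM (V female). It was lower in AT1-high spots of all 4 sections, by little in the V male. Aldh3a2 was at 72.0 and 54.7 CPM (NV male), 90.5 and 54.7 CPM (NV female), 85.1 and 73.3 CPM (V male) and 79.7 and 53.2 CPM (V female), higher in AT1-high spots of all 4. The log2 differences were -0.60 (SE 0.13, adjusted p of 0.0115) for Aldh1a7 and 0.33 (SE 0.09, adjusted p of 0.0283) for Aldh3a2 in edgeR, which called 1506 of 13244 genes, or 11.4%. Both calls were lost without the V female, the NV male or the NV female, and that of Aldh3a2 also in DESeq2's Wald test (adjusted p of 0.166). The other 7 of the 9 genes tested were not called, Aldh3a1 lying at -0.63 and the rest between -0.13 and 0.14. Among the rest, Aldh1a1 had ratios of 1.26 (NV male), 1.75 (NV female), 0.963 (V male) and 1.05 (V female). Without the V male Aldh3a1 was at -1.03, called at an adjusted p of 0.0112 in edgeR, and without the V female at 0.44. The fit without the V male again called the most genes over all genes tested, among those that leave out a mouse.

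Adipocyte-high spots were defined from 8 markers, among them Adipoq, Plin1 and Cidec. Aldh1a7 was at 51.6 CPM in adipocyte-high and 42.6 CPM in other spots of the NV male, 98.6 and 28.9 CPM (NV female), 23.1 and 23.5 CPM (V male) and 90.1 and 58.4 CPM (V female). The rise was largest in the NV female, with a ratio of 3.41, and there was none in the V male. The log2 difference of 0.85 (SE 0.28) had an adjusted p of 0.175 in edgeR and was not called. Without the V male it was 1.09, called at 0.0259, in the fit with most calls over all genes among those that leave out a mouse. With the highest 10% of spots in place of 25% it was 1.38, called at 0.0454. Aldh1a1 and Cbr2 had log2 differences of -0.36 (SE 0.13, adjusted p of 0.205) and -0.34 (SE 0.13, adjusted p of 0.204) in edgeR. Of the 9 genes 0 were called by edgeR or by DESeq2's Wald test, 4 had an unadjusted p under 0.05, and edgeR called 94 of 13612 genes, or 0.691%.

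**Figure D3:**
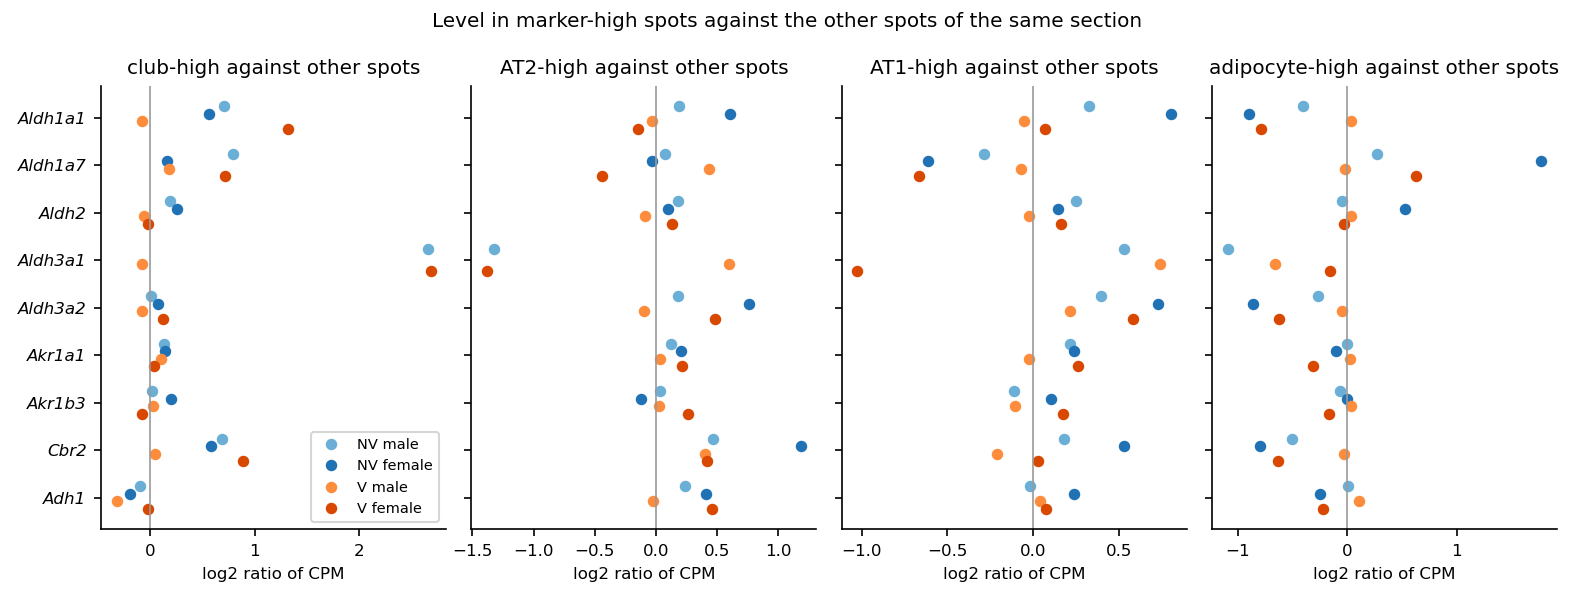
Log2 ratio of the CPM in marker-high spots to that in the other spots of the same section (horizontal axis; scales differ between panels) for club, AT2, AT1 and adipocyte markers, 1 point per section. A gene with under 20 UMIs in a section, or 0 in its marker-high spots, is not drawn. Aldh3a1 reaches ratios above 6 in club-high spots of the NV male and the V female, Cbr2 lies right of 0 in AT2-high spots of all 4 sections, and the V male lies near 0 in the club and adipocyte panels for most genes.

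Within sections, the genes whose level over spots was most like that of each enzyme were ranked by the mean Pearson correlation over the 4 sections among 8885 genes with at least 0.1 UMIs per spot. Spots of a section share its library, neighbours overlap in tissue, and these correlations are descriptions. Cbr2 was closest to the surfactant genes Sftpc (mean r of 0.572) and Sftpa1 (0.544) and to Lyz2 (0.540), each of which AT2 cells of the mouse express. For Sftpc the correlation was 0.461 in the V male and 0.685 in the NV male, the lowest and the highest of the 4 sections. Aldh1a1 was closest to Inmt (0.357), Wfdc2 (0.327) and Epas1 (0.325), and for Inmt it was 0.126 in the V male against 0.580 in the NV female. With the summed endothelium markers, Aldh1a1 had correlations of 0.472 (NV male), 0.524 (NV female), -0.027 (V male) and 0.197 (V female). With the club markers these were 0.442, 0.342, 0.032 and 0.350. Aldh1a7 was closest to the lipid synthesis genes Fasn (0.209) and Scd1 (0.200), both of which fat cells express, with 0.364 and 0.385 for the NV female and 0.046 and 0.022 for the V male. Aldh2 was closest to the endothelial and alveolar gene Tmem100 (0.248), and Adh1 to Mgp (0.197), a gene of stromal cells. Aldh3a2, Akr1a1 and Akr1b3 had no gene above a mean of 0.213. Between the enzymes themselves, the pair Aldh1a1 and Cbr2 had correlations of 0.439, 0.554, 0.012 and 0.337 in the NV male, NV female, V male and V female. Aldh1a1 and Aldh1a7 had 0.084, -0.075, 0.012 and 0.063, so the 2 neighbouring genes hardly varied together over spots.

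UMIs of some genes gathered in few spots. In the V female, the 5% of spots with most Aldh1a1 UMIs held 33.8% of them, while the deepest 5% of spots held 19.5% of all UMIs of that section. In the V male these shares were 16.8% and 15.5%, so Aldh1a1 was spread about as evenly there as RNA as a whole. For Cbr2 the share of UMIs in the 5% of spots with most was 26.5% (V female) and 18.3% (V male).

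Aldh3a1 and Akr1c18 were too sparse for the ranking over all sections, and their likeness was examined in the V female alone, a step added after their levels were seen. Of 11201 genes, both were closest to Bpifa1, a secreted protein of the upper airway epithelium, with correlations of 0.400 for Aldh3a1 and 0.381 for Akr1c18. Bpifa1 itself was at 157 CPM (NV male), 52.0 CPM (NV female), 15.2 CPM (V male) and 7466 CPM (V female). The V female section thus held far more of this upper airway transcript than the other sections, and its part in the higher Aldh3a1 and Akr1c18 of that section was not tested.

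The club-high spots of each section were therefore divided into those of higher and of lower Bpifa1 share, at about equal numbers where enough spots held Bpifa1. The Bpifa1-lower spots held Bpifa1 at 3427 CPM in the V female and at 0 CPM in the other sections, where presence was set against absence. The Bpifa1-higher spots held it at 673 CPM (NV male), 249 CPM (NV female), 366 CPM (V male) and 26533 CPM (V female). In the V female, 256 and 257 spots, Akr1c18 was at 33.1 CPM (204 UMIs) and 2.81 CPM (7 UMIs), and Aldh3a1 at 47.4 CPM (292 UMIs) and 9.23 CPM (23 UMIs). Aldh1a1 was at 1372 and 762 CPM and Cbr2 at 4688 and 3926 CPM. Aldh2 showed no such rise, at 821 and 918 CPM. Scgb1a1, the main secretory protein of club cells, was at 27719 and 36133 CPM in the V female, so it was lower there where Bpifa1 was higher. In the other sections Scgb1a1 was higher with Bpifa1, at 47980 and 17917 CPM (NV male), 17177 and 1881 CPM (NV female) and 965 and 597 CPM (V male). The split thus also follows club content in those sections. In the NV male, 104 and 106 spots, Aldh3a1 had 13 UMIs (11.2 CPM) and 1 UMI (1.15 CPM), and Akr1c18 had 0 and 1. In the NV female, where 38 spots held Bpifa1, Aldh3a1 had 1 and 0 UMIs, and in the V male, where 28 did, 3 and 6 UMIs (13.7 and 2.52 CPM). Aldh3a1 had thus the higher CPM in the Bpifa1-higher spots of all 4 sections, on few UMIs in 3 of them. In those 3 the split was of another kind than in the V female. Since Bpifa1 was chosen for its likeness in the V female, the values there are a description.

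**Figure D4:**
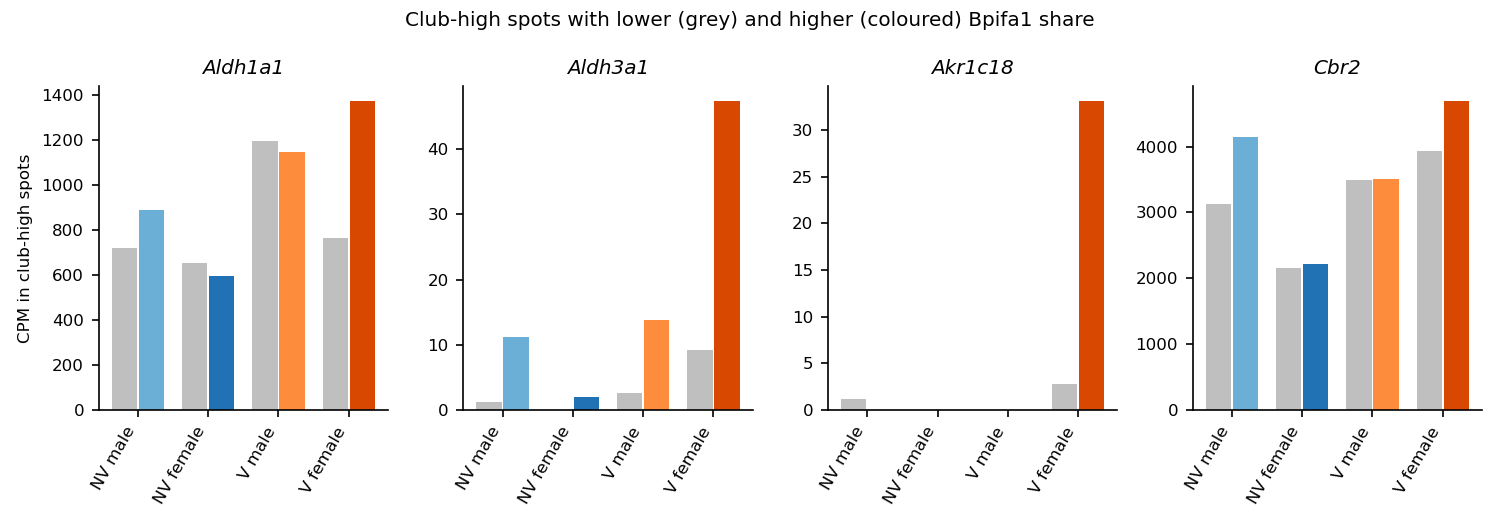
Level in CPM (linear axes from 0) of Aldh1a1, Aldh3a1, Akr1c18 and Cbr2 in club-high spots of lower Bpifa1 share (grey) and of higher Bpifa1 share (coloured) in each section. The lower share is 0 in all sections but the V female. Akr1c18 at 33.1 CPM and Aldh3a1 at 47.4 CPM stand out in the Bpifa1-higher spots of the V female, and Aldh1a1 of the V male is about level at 1148 and 1198 CPM.

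The pathway was extended by 43 other genes of aldehyde, ketone and alcohol metabolism. Over whole sections, 9 of the 43 were higher and 6 lower in both V sections than in both NV sections, beside 12.6% and 14.4% of all genes tested. Those shares are over genes that passed the filter on low counts, whereas the 43 include genes that did not, such as Akr1c6 with 0 UMIs in every section. Of the 34 that passed the filter, 0 were called by edgeR, 0 of them at an unadjusted p under 0.05. The genes of highest mean level were Esd, which completes the glutathione-dependent clearance of formaldehyde, Aldh6a1, a mitochondrial enzyme of valine breakdown, and Dcxr, a reductase of dicarbonyls. Esd was at 111 to 116 CPM in all 4 sections. Dcxr was at 73.9 and 61.4 CPM (NV male and female) and 112 and 81.6 CPM (V male and female). Aldh6a1 was at 73.1 and 187.6 CPM (NV male and female) and 94.8 and 156.6 CPM (V male and female), with the groups overlapping. In club-high spots 1 of 32 was called higher (Adh7) and 0 lower, and in adipocyte-high spots 1 of 33 higher (Aldh3b2) and 0 lower. The club difference of Adh7 was 2.07 on the log2 scale, and 0.55 and not called without the V female. That of Aldh3b2 was 2.16, with the call lost when any mouse but the V male was left out. In AT2-high spots 1 of 33 was higher (Dcxr) and 6 were lower, and in AT1-high spots 1 of 33 was higher (Akr1c14) and 9 were lower. Over all genes tested 9.40% were called in AT2-high spots (244 higher and 1022 lower) and 11.4% in AT1-high spots (366 and 1140). Scaled to total UMIs alone, all genes split into 641 higher and 881 lower (AT2) and 1161 and 878 (AT1), and the pathway genes into 2 and 6 and into 1 and 6. Of the pathway genes, 1 was lower in each class without the V female, and 17 (AT2) and 19 (AT1) without the V male. Calls over all genes were also most numerous without the V male in both classes, among the fits that leave out a mouse, so these counts follow the calls as a whole. Both Dcxr (0.37) and Akr1c14 (0.57) lost the call in edgeR without the V female. The median log2 difference of the genes tested was -0.22 in AT2-high and -0.28 in AT1-high spots, beside 0.002 and 0.001 over all genes.

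Adh7, the alcohol dehydrogenase of surface epithelia, and Aldh1b1, a mitochondrial aldehyde dehydrogenase, were the 2 of these 43 genes whose club relation was called as different between V and NV sections. Adh7 had 37 UMIs (3.94 CPM) and 25 UMIs (3.59 CPM) in the NV male and female, 15 UMIs (1.26 CPM) in the V male, and 1343 UMIs (39.1 CPM) for the V female. In club-high and other spots it was at 5.91 and 3.40 CPM (NV male), 4.84 and 3.38 CPM (NV female), 1.54 and 1.19 CPM (V male) and 108 and 15.9 CPM (V female). The log2 difference of the club relation, V minus NV, was 1.94 (SE 0.48, adjusted p of 0.0371 in edgeR), with 1 section, the V female, far above the rest. Aldh1b1 had a difference of 1.07 (SE 0.26, adjusted p of 0.0351 in edgeR), with ratios of 0.594 and 0.424 in the NV male and female, 1.78 on 15 UMIs for the V male and 1.10 for the V female. Neither difference was called by DESeq2's Wald test (adjusted p of 0.9995 for Adh7 and 0.757 for Aldh1b1) or by edgeR with the highest 10% of spots (log2 differences of 1.19 and 0.51). In its turn Aldh1b1 was 5.12 to 5.57 times higher in spots with most heart muscle markers in the 3 sections that held heart muscle, whose part in this difference was not tested. In the V female Adh7, as Aldh3a1 and Akr1c18, was most like Bpifa1 (r of 0.502) and was at 146 CPM in the Bpifa1-higher and 14.0 CPM in the Bpifa1-lower club-high spots.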

How the data were processed

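Visium spatial transcriptomes of 4 lung sections, 2 V and 2 NV, were analysed. The authors processed reads with SpaceRanger against the 10x mouse reference mm10-2020-A and deposited, for each section, a table of raw UMI counts by gene and spot under tissue. Their later Seurat (v4.0.3) normalization and batch correction are not part of these counts. All deposited spots were used, and counts per section (6957392 to 34308556 UMIs) set the precision.

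UMIs were summed per section, or per section and spot class, and tested with the quasi-likelihood method of edgeR 4.0.16 (R 4.3.3), after filterByExpr and TMM scaling, with Benjamini-Hochberg adjustment over all genes tested. Class comparisons had the section as a block. Spot classes were the 25% of spots of a section with the highest share of UMIs from a marker list. CPM were scaled to total UMIs alone. Correlations over spots used values scaled to 10000 per spot and log-transformed, in spots with at least 500 UMIs. The authors' test over spots was not used, as spots of 1 section are not replicates. Nothing states that the mice of a group differed in litter or cage, and p-values measure the spread between these sections only.

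The members of the list, the marker lists and the 43 further genes were chosen with earlier results of these data known. Named were the 10 members, and of the further genes the 3 of highest level and those called between V and NV. Dcxr, Akr1c14 and Aldh3b2 as called genes, Bpifa1 and Scgb1a1 were named after their values were seen. Genes were located in GENCODE vM21 (GRCm38). Stretches of 90 bases within the last 500 bases of the transcript were unique for 8 members, whereas 5.11% of those of Akr1b3 and 19.7% of those of Cbr2 occur in other annotated genes, so reads of these may be shared. Promoter windows came from RefSeq.

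On simulated counts at the spread of the real sums, with 200 genes moved by 2 on the log2 scale, edgeR recovered 27.5% over whole sections (14339 genes), 84.5% outside the top 25% (13160 genes), 97.0% for club (13569 genes) and adipocyte classes (13494 genes), 98.0% for AT2 (13340 genes), 97.5% for AT1 (13121 genes) and 88.5% for the interaction (13538 genes). Every gene was drawn at a common spread around shares pooled over all sums, and smaller changes, such as most of those given here, were not simulated. Alternatives were the size factors of DESeq2 1.42.0 in edgeR, DESeq2's Wald test, scaling to total UMIs alone, no filter on low counts, spots with at least 500 UMIs, the highest 10% of spots, other spots outside the top 50%, each mouse left out and a replicate block.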

Additional observations from a re-analysis of the deposited data

Results flagged for a closer look

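For Aldh1a7, Aldh3a2 and Akr1b3 the ratio of V over NV lay on opposite sides of 1 in the males and the females, with 1 section on each side, and these differences were not tested. Aldh1a7 had a ratio of 0.529 in males and 1.45 in females, Aldh3a2 of 1.29 and 0.931, and Akr1b3 of 0.918 and 1.07. The exact Poisson intervals of the V and NV levels overlapped for Akr1b3 in both sexes and for Aldh3a2 in females. The male ratios rest on the V male section, which held little airway, fat and heart muscle.

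Of the further genes, the interaction term in edgeR differed between V and NV for the club relation of Adh7 (log2 difference of 1.94) and of Aldh1b1 (1.07). DESeq2's Wald test called neither, and 19 genes in all in place of 219.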

How the results depend on the processing

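With 1 mouse left out, the counts of genes called by edgeR ranged from 0 to 811 over whole sections and from 0 to 1105 outside the top 25%, the largest without the V female. They ranged from 63 to 424 for club, 285 to 3079 for AT2, 268 to 3173 for AT1 and 21 to 1743 for adipocyte classes, the largest without the V male. In these fits the lone section of a group is assumed to vary like the others. The log2 fold change of Aldh1a7 between V and NV over whole sections was -1.13 when the V female was left out and 0.67 when the V male was, and the log2 difference of Aldh3a1 in AT1-high spots lay between -1.03 and 0.44.

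DESeq2's Wald test called 8 genes over whole sections, 9 outside the top 25%, 740 for AT2, 861 for AT1, 298 for adipocyte classes and 19 for the interaction. Without the filter on low counts edgeR called 1001 genes for club, 2339 for AT2, 2384 for AT1 and 1034 for adipocyte classes. The highest 10% of spots gave 265 genes for club and 367 for adipocyte classes and 33 for the interaction. Scaling to total UMIs alone gave 348 genes for adipocyte classes, of which 276 were higher, against 94 of 94. The median of all genes was then 0.12 (AT2), 0.14 (AT1) and -0.17 (adipocyte), in place of 0.002, 0.001 and -0.01, and the scaling turned the split of higher and lower calls from 244 and 1022 to 641 and 881 for AT2, from 366 and 1140 to 1161 and 878 for AT1 and from 83 and 82 to 89 and 50 for club. The cause was not tested.

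Replicate numbers, which are also the sexes, were shared between the groups, and deviations of same-numbered sections had a correlation of 0.376 over 14570 genes with 2 pairs only. With a replicate block, 0 genes were called over whole sections (413 at an unadjusted p under 0.05) and 0 outside the top 25% (652), and Aldh1a7 turned to -0.21. Of 36 log2 values of the 10 genes not named here or in the report, of at most 0.29 in size, 44 of 322 values under alternatives changed direction. Of 27 named values, 219 of 254 kept direction and call. Depth limits Aldh3a1 and Akr1c18, which had at most 43 and 2 UMIs in 3 of the sections.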
